A study of Mus musculus with 12 samples.

Results

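Sox17, Foxa1, Foxa2, Hhex, Cer1 and Cxcr4 are genes used to recognize definitive endoderm, the germ layer that forms the gut tube and its organs. They were chosen by name from the 46517 genes listed in the count files, each by a single Ensembl identifier, and all 6 passed the filter on low counts that 15673 genes passed. Levels are in CPM, a gene's reads relative to the total of its library, after TMM scaling, which corrects for differences in RNA composition.

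RNA was sequenced from a mouse ESC line that carries an EGFP reporter at Eomes, labelled with the C57BL/6 strain background. WT cells were compared with Meteor KO cells, in which an enhancer upstream of Eomes and the start site of its lncRNA were deleted with a CRISPR-Cas9 nickase. Both genotypes, which share the reporter, were sampled at day 0, as undifferentiated cells grown on mouse embryonic fibroblast feeders, and at day 3, as embryoid bodies formed in hanging drops for cardiac differentiation. There were 3 replicates in each of the 4 groups. KO clones were picked singly, and the sources used here do not say how many clones gave the 3 KO replicates, so that an effect of the deletion and one of a clone cannot be told apart. The labels do not say that replicates came from separate cultures, and p-values then measure only the spread between these libraries.

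In the gastrulating embryo, cells that leave the primitive streak under strong Nodal signalling take up endoderm fate, and the T-box factor Eomes is needed for this step. Sox17 and the forkhead factors Foxa1 and Foxa2 act in the nucleus of the forming endoderm, and Hhex is a homeobox repressor of its anterior part. Cer1 is a secreted inhibitor of Nodal and BMP, and Cxcr4 is the receptor for the chemokine Cxcl12. None of these genes is exclusive to definitive endoderm: Sox17, Foxa2, Hhex and Cer1 are also used by visceral endoderm, Foxa2 by the node and notochord, and Sox17, Hhex and Cxcr4 by blood vessel or blood progenitors.

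Sox17 lies on the minus strand of chromosome 1 (chr1:4490931-4497354, GRCm38), Foxa1 on chromosome 12 (chr12:57540628-57546916, minus), Foxa2 on chromosome 2 (chr2:148042877-148046969, minus) and Hhex on chromosome 19 (chr19:37434810-37440731, plus). Cer1 lies on chromosome 4 (chr4:82881751-82885148, minus) and Cxcr4 on chromosome 1 (chr1:128588199-128592293, minus). No word of 100 bases, the read length, from the annotated transcripts of any of the 6 genes occurred in an annotated transcript of another gene. Copies that differ by single bases or are not annotated were not searched for.

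The stretches just before the transcription starts of Cer1, Foxa2 and Cxcr4 are shown because Cer1 and Foxa2 had the highest levels per length of the members at day 3 in WT cells and Cxcr4 is the only receptor. The RefSeq sequences (GRCm38.p6) are read 5′ to 3′ on the strand of the gene and end just before the start site, with the letters of searched motifs in capitals. They span chr4:82885152-82885401 for Cer1, chr2:148046970-148047219 for Foxa2 and chr1:128592300-128592549 for Cxcr4.
Cer1: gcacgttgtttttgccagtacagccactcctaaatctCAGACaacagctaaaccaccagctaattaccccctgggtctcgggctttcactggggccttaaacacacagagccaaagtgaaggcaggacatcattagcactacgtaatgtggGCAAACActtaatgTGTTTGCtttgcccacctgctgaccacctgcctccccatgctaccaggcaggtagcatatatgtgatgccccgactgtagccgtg
Foxa2: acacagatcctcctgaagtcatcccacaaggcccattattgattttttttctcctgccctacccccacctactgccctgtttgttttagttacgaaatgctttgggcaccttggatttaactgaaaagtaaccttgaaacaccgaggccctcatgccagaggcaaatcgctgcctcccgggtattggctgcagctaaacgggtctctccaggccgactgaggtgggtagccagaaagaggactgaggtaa
Cxcr4: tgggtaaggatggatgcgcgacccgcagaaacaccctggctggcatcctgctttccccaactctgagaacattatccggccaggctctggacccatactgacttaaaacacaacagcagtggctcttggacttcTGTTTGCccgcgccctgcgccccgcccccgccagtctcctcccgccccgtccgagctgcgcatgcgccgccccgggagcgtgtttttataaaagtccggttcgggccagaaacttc
These motifs were searched on both strands, with overlaps between motifs allowed: TGTTTAC and TGTTTGC for forkhead factors, GGTGTGA for T-box factors, GGATTA for bicoid-class homeobox factors, CAGAC for Smads and AATCCACA for FoxH1. The Cer1 window held TGTTTGC once on each strand, 99 and 85 bases before the start site, and CAGAC once, 213 bases before it. The Cxcr4 window held TGTTTGC once, 116 bases before the start site, and the Foxa2 window held none of the motifs. TGTTTGC occurs in 4.3% of the 32851 windows of 250 bases in the RefSeq table and CAGAC in 42.2%. TGTTTAC occurs in 3.17% of them, GGTGTGA in 3.33%, GGATTA in 6.25% and AATCCACA in 0.718%. A match describes letters only.

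Between 17455927 and 23910943 reads per library were counted on genes, so that 1 CPM is about 20 reads. Platr11, the annotated transcript of the deleted locus (chr9:118404097-118406099, minus), had 112, 30 and 63 reads in the WT libraries and 0, 1 and 1 in the KO libraries at day 0, and 11, 53 and 32 against none at day 3, as the labels have it. WT replicate 3 stood apart at both days. At day 3 its summed CPM of 11 blood and endothelial progenitor markers was 458.6, against 63.52 and 61.71 in the other WT libraries, and its sum of 18 visceral and primitive endoderm markers was 675.1, against 271.9 and 280.1. At day 0 it had 77.41 CPM of the T-box gene T, against 4.641 and 6.419 in the other WT libraries. Comparisons of the members and of their named regulators, relatives and partners are therefore also given without WT replicate 3 of both days. This is done where that changes a call or moves a value by over 1.5 times. For the marker lists only some counts at day 3 are given that way, and single genes named from them are given with all libraries only.

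The first question was which of the genes the WT cells turn on over 3 days. All 6 rose from day 0 to day 3 in WT cells, against 30.7% of all tested genes that rose and 25.5% that fell. Genes were called at an adjusted p below 0.05 with no minimum fold change, in edgeR's quasi-likelihood test on all 12 libraries with Benjamini-Hochberg adjustment over all tested genes.

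Cer1, the secreted inhibitor, was almost silent at day 0, with 2, 1 and 2 reads in the WT libraries, and reached 110.7, 45.59 and 80.02 CPM at day 3. Its rise was the largest of the 6, with a log2 fold change of 9.66 ± 0.37 (SE, adjusted p = 1.71e-07). Since the day 0 level rests on 5 reads, the ratio of reads per gene read was 967 with a 95% exact interval of 414 to 2980, which covers counting error only.

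Foxa2 had 0.546, 1.253 and 1.532 CPM at day 0 and 88.75, 59.11 and 55.59 CPM at day 3. Every day 3 library was far above every day 0 library, and the log2 fold change was 5.95 ± 0.38 (SE, adjusted p = 3.12e-06). Foxa1, its close relative, reached 2.798, 2.166 and 11.34 CPM from 1.693, 1.305 and 1.691 CPM. The gain of Foxa1 was the smallest of the 6, 1.57 ± 0.47 on the log2 scale (SE, adjusted p = 0.0164), and the call depended on replicate 3 and on the fit. Without WT replicate 3 of both days it was 0.73 (adjusted p = 0.0933), without the day 3 library alone 0.66 (adjusted p = 0.0729) and without the day 0 library alone 1.25 (adjusted p = 0.0964). With only the 6 WT libraries, replicate 3 included, it was 1.37 and did not pass either (adjusted p = 0.0731).

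Sox17, the SoxF factor of the endoderm, had 0.491, 1.148 and 0.528 CPM at day 0 and 14.78, 11.17 and 43.2 CPM at day 3. The groups did not overlap, and the log2 fold change was 4.90 ± 0.58 (SE, adjusted p = 9.47e-05). It was 4.02 without WT replicate 3 of both days and 5.61 without WT day 3 replicate 2. Hhex was already present in undifferentiated cells, at 3.877, 3.705 and 5.654 CPM, and rose to 14.13, 10.3 and 23.58 CPM, by 1.83 ± 0.27 on the log2 scale (SE, adjusted p = 0.000311). Cxcr4 rose from 2.566, 1.357 and 5.178 CPM to 21.45, 16.66 and 63.59 CPM, by 3.41 ± 0.33 on the log2 scale (SE, adjusted p = 2.86e-05). Hhex and Cxcr4 shared their highest library, replicate 3, at both days.

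**Figure D1:**
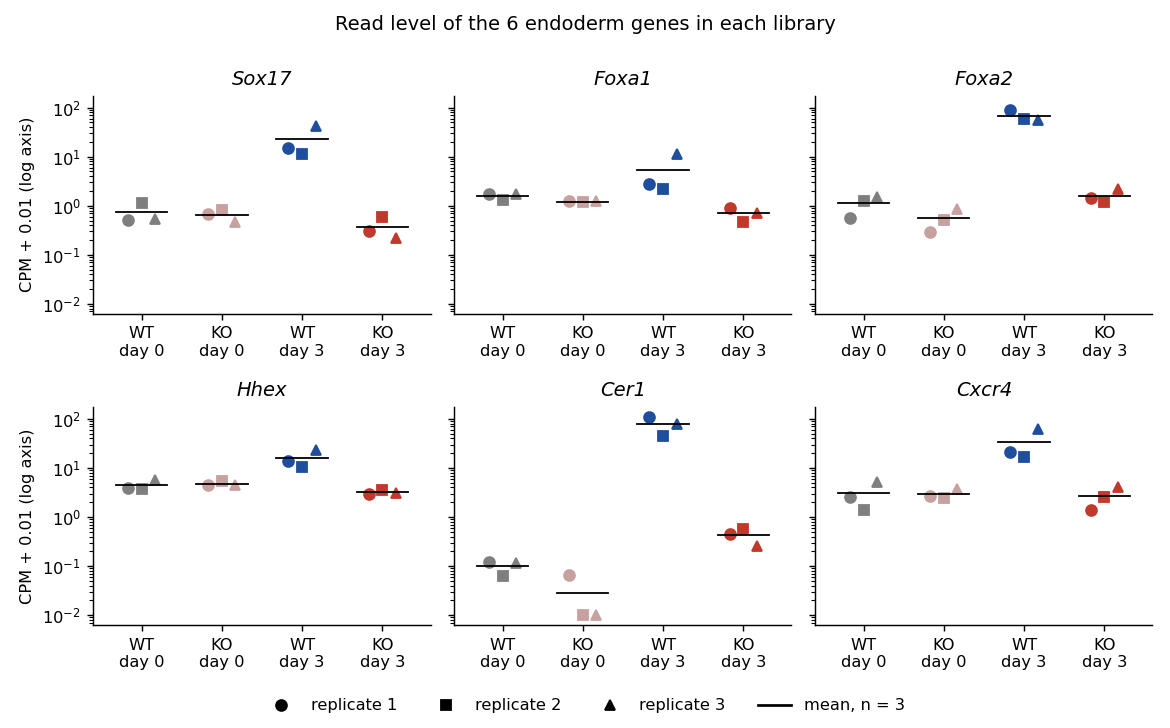
CPM + 0.01 on a log axis for each gene in each of the 12 libraries, with symbols for replicates 1 to 3 and a line at the mean of each group. In every panel the 3 WT day 3 libraries lie above all other libraries, and for Sox17, Foxa1, Hhex and Cxcr4 the highest of them is replicate 3.

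Levels per length at day 3 in WT cells, as RPKM (CPM divided by the exon length in kilobases), ordered the genes as Cer1 (45.3 ± 18.7, SD, n = 3), Foxa2 (28.6 ± 7.69), Cxcr4 (18.8 ± 14.3), Sox17 (4.83 ± 3.68), Hhex (3.17 ± 1.35) and Foxa1 (1.63 ± 1.54). Only Cxcr4 and Sox17 did not overlap among neighbours in that order, and by little, since the lowest Cxcr4 library had 9.21 and the highest Sox17 library 9.05 on this scale. At day 0 in WT cells the order was Cxcr4 (1.68 ± 1.08), Hhex (0.873 ± 0.213), Foxa1 (0.470 ± 0.067), Foxa2 (0.469 ± 0.215), Sox17 (0.151 ± 0.077) and Cer1 (0.0512 ± 0.0184). Cer1 thus went from the lowest level per length to the highest.

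The members fell into 2 patterns among the WT day 3 libraries. Replicate 3 held 69.5% of the CPM summed over the 3 libraries for Foxa1, 62.5% for Sox17, 62.5% for Cxcr4 and 49.1% for Hhex. It held 33.9% for Cer1 and 27.3% for Foxa2, for both of which replicate 1 was highest, with 46.8% and 43.6%. Sox17, Foxa1 and Cxcr4 were at least 2 times as high in replicate 3 as in both other libraries, which 5.88% of all tested genes were.

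Marker lists of other cell types moved with this split. At least 2 times as high in replicate 3 as in both others were 9 of 11 blood and endothelial progenitor markers, 13 of 17 tested visceral and primitive endoderm markers, 13 of 22 other endoderm genes and 4 of 8 nascent mesoderm markers. The receptor Kdr, for example, had 21.8, 19.2 and 258 CPM, and Hand1, a factor of lateral and extraembryonic mesoderm, had 1.68, 1.25 and 105 CPM. Levels within the visceral and primitive endoderm list were uneven: Afp stayed at or under 2.334 CPM and Ttr reached 11.34 CPM in replicate 3. Apob had 2.752, 10.54 and 102.1 CPM, and Spink1 had 1.119, 0.8665 and 50.02 CPM. The summed level of the mesendoderm factors that include Eomes and T went the other way, at 2002, 1809 and 1157 CPM, and 2 of these 9 factors were highest in replicate 3. Of the 6 node and notochord markers 4 were highest in replicate 3, Shh and Nog at least 2 times as high as in both others. Their sum was lowest there, at 789, 675.1 and 355.3 CPM, of which T made up 692.5, 612.6 and 269.5 CPM. The part of these cell types in the level of the members was not tested.

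**Figure D2:**
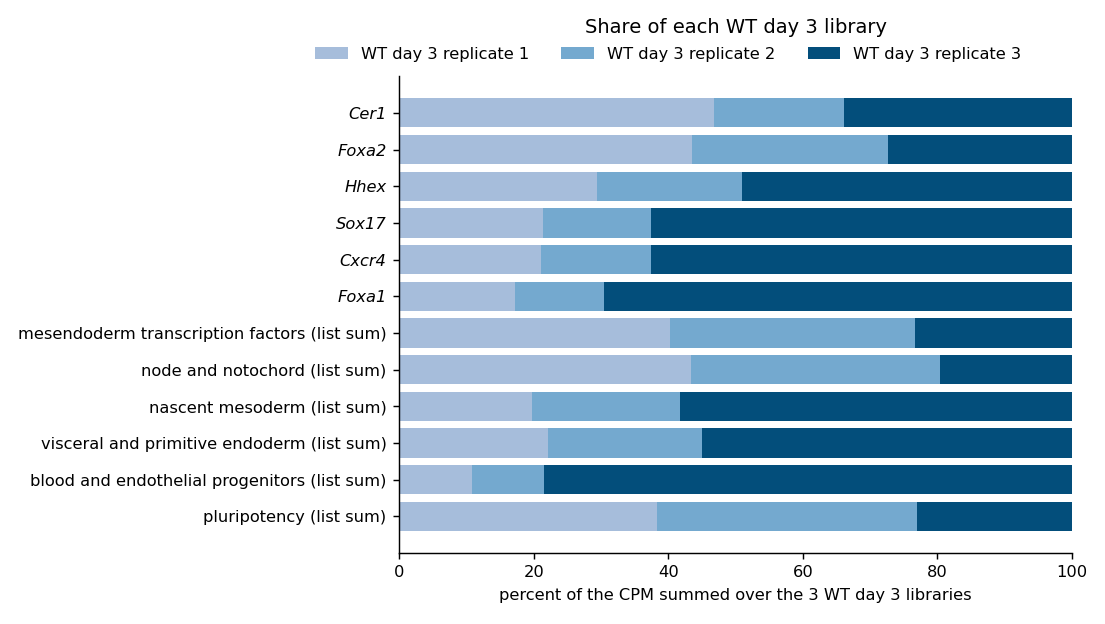
Percent of the CPM summed over the 3 WT day 3 libraries that each library holds, for the 6 genes and for the summed level of 6 marker lists. Replicate 3 holds 62.5% to 69.5% for Sox17, Cxcr4 and Foxa1 and 78.6% for blood and endothelial progenitor markers, but 27.3% for Foxa2. It holds 19.5% of the node and notochord sum, in which T makes up 269.5 of its 355.3 CPM.

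The next question was whether the deletion changed these genes before differentiation. At day 0 none of the 6 genes passed the test between KO and WT cells, against 20.4% of all tested genes, 10.9% lower and 9.56% higher in KO cells. At an unadjusted p below 0.05 the count was also 0 of 6, and DESeq2 and limma-voom called none of the 6. With only the 6 libraries of day 0, Foxa2 passed, at an adjusted p of 0.0477.

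Foxa2 had 0.280, 0.496 and 0.868 CPM in KO cells at day 0, lower than its WT partner of the same number in 3 of 3 pairs, with overlapping groups and a log2 difference of -1.01 ± 0.49 (SE, adjusted p = 0.18). Foxa1 had 1.233, 1.157 and 1.226 CPM, just under all WT libraries, with a log2 difference of -0.36 ± 0.49 (SE, adjusted p = 0.658). Sox17 had 0.673, 0.827 and 0.460 CPM (log2 difference -0.14 ± 0.67, SE, adjusted p = 0.911), which is 9 to 15 reads per library. Hhex had 4.483, 5.457 and 4.392 CPM and a log2 difference of 0.15 ± 0.27 (SE, adjusted p = 0.749). Cxcr4 had 2.634, 2.48 and 3.626 CPM and a log2 difference of 0.08 ± 0.34 (SE, adjusted p = 0.897). Cer1 had 1 read in the 3 KO libraries together against 5 in the WT libraries, too few for a fold.

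The central comparison asked whether KO cells turn on endoderm genes by day 3. All 6 genes were lower in KO than in WT cells at day 3, without overlap between the groups and in 3 of 3 pairs of the same number, against 16.7% of all tested genes that were lower and 14.3% that were higher. In these bulk samples fewer cells of a type and less RNA per cell cannot be told apart. The count was 6 of 6 under every alternative that was run, including each library left out in turn and WT replicate 3 of both days left out together.

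Cer1 had 0.450, 0.569 and 0.250 CPM in KO cells at day 3, or 9, 10 and 6 reads, against 2373, 947 and 1680 reads in WT cells. Its mean was 0.537% of the WT mean, the lowest share of the 6, with a log2 fold change of -7.53 ± 0.31 (SE, adjusted p = 7.41e-07). Among the factors, Sox17 kept 1.56% of its WT mean, with 0.300, 0.569 and 0.208 CPM in KO cells and a log2 fold change of -5.95 ± 0.63 (SE, adjusted p = 0.000203). The log2 fold change of Sox17 was -4.99 without WT replicate 3 of both days, -6.62 without WT day 3 replicate 2 and -5.36 without KO day 3 replicate 3, with adjusted p up to 0.00252. It had 6, 10 and 5 reads in these KO libraries, and 12, 15 and 9 in those of day 0.

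Foxa2 had 1.4, 1.194 and 2.165 CPM in KO cells, 2.34% of its WT mean, with a log2 fold change of -5.44 ± 0.37 (SE, adjusted p = 2.2e-05). Foxa1 had 0.900, 0.455 and 0.708 CPM, 12.7% of its WT mean, with a log2 fold change of -2.78 ± 0.51 (SE, adjusted p = 0.00298). The log2 fold change of Foxa1 was -1.87 without WT replicate 3 of both days (adjusted p = 0.00668).

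Hhex was the member that kept most, 19.7% of its WT mean, at 2.9, 3.469 and 3.08 CPM, with a log2 fold change of -2.30 ± 0.28 (SE, adjusted p = 0.000374). Cxcr4 had 1.35, 2.559 and 4.163 CPM, 7.94% of its WT mean, with a log2 fold change of -3.53 ± 0.34 (SE, adjusted p = 0.000126). Within KO cells Hhex varied little between libraries, whereas the highest Cxcr4 library, replicate 3, had about 3 times the level of the lowest.

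**Figure D3:**
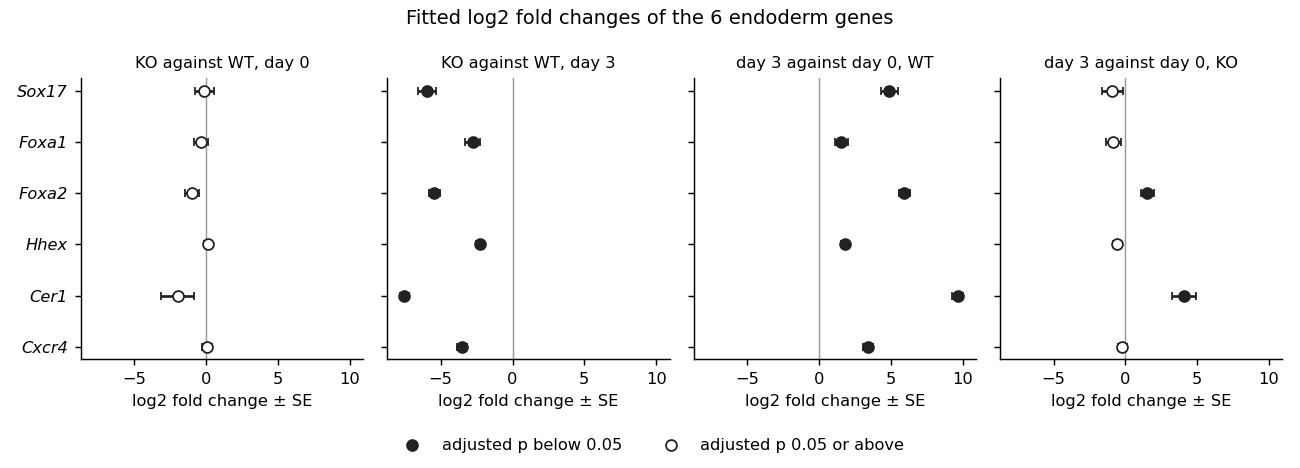
Fitted log2 fold change with its SE for the 6 genes in 4 comparisons, with filled points at an adjusted p below 0.05. All points are filled and below 0 for KO against WT at day 3, all are open at day 0, and in KO cells only Foxa2 and Cer1 are filled for day 3 against day 0.

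Over the 3 days KO cells raised 2 of the 6 genes, against 29.4% of all tested genes that rose and 27.2% that fell. Cer1 went from 1 read in the 3 libraries to 25, a ratio of 23.7 per gene read with a 95% exact interval of 3.88 to 974 for counting error only, and its fitted log2 fold change was 4.11 ± 0.83 (SE, adjusted p = 0.00193), or 5.79 without KO day 0 replicate 1, which held that read. Foxa2 rose by 1.52 ± 0.46 on the log2 scale (SE, adjusted p = 0.0175), from a mean of 0.548 to 1.59 CPM. That call was lost in limma-voom (1.55, adjusted p = 0.0603), without KO day 0 replicate 1 (1.20, adjusted p = 0.0705) and without KO day 3 replicate 3 (1.27, adjusted p = 0.0873).

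The other 4 genes did not pass in KO cells. Their log2 differences were -0.91 ± 0.74 for Sox17 (SE, adjusted p = 0.313), -0.85 ± 0.53 for Foxa1 (adjusted p = 0.197), -0.61 ± 0.28 for Hhex (adjusted p = 0.0813) and -0.20 ± 0.34 for Cxcr4 (adjusted p = 0.642). Foxa1 and Hhex had no overlap between the days, with every KO day 3 library under every KO day 0 library, and both passed as lower without WT replicate 3 of both days (adjusted p = 0.0428 and 0.0413), Hhex also without KO day 0 replicate 3 (adjusted p = 0.0385).

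Whether the effect of the deletion differed between the days was tested as an interaction. The difference was larger at day 3 for 5 of the 6 genes, against 7.34% of all tested genes with a lower and 8.21% with a higher interaction term. It was -5.82 ± 0.94 on the log2 scale for Sox17 (SE, adjusted p = 0.00359) and -4.43 ± 0.65 for Foxa2 (adjusted p = 0.0025). For Cxcr4 it was -3.61 ± 0.47 (adjusted p = 0.00152) and for Hhex -2.45 ± 0.38 (adjusted p = 0.00319). The Sox17 value was -4.91 without WT replicate 3 of both days (adjusted p = 0.00372) and -4.84 without WT day 3 replicate 3 alone. It was -6.53 without WT day 3 replicate 2 and -5.22 without KO day 3 replicate 3. For Foxa1 it was -2.41 ± 0.71 (adjusted p = 0.0444), which was lost without the replicate block (-2.59, adjusted p = 0.0502) and without WT replicate 3 of both days (-1.54, adjusted p = 0.0639). The same held in limma-voom (-2.34, adjusted p = 0.0703) and with several of the libraries left out singly (adjusted p 0.0598 to 0.144). For Cer1 it was -5.55 ± 2.4 (adjusted p = 0.147), with 1 KO read at day 0, and it passed in DESeq2 (-5.36, adjusted p = 0.00204) and limma-voom (-6.08, adjusted p = 0.0029).

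Regulators and partners of the members did not move as one. Eomes had 471, 479.7 and 260.8 CPM in WT cells and 54.69, 144.3 and 128.6 CPM in KO cells at day 3, a log2 fold change of -1.87 ± 0.40 (SE, adjusted p = 0.00646), so KO cells kept 27.0% of the WT mean. Nodal, the signal, had 64.78, 47.94 and 31.58 CPM against 51.19, 28.04 and 32.38 CPM, with overlapping groups and a log2 difference of -0.37 ± 0.20 (SE, adjusted p = 0.189), which passed without WT day 3 replicate 3 (-0.57, adjusted p = 0.0442). The share that KO cells kept of the WT mean was lower for each of the 6 members than for Eomes, from 0.537% for Cer1 to 19.7% for Hhex, and no test of that order was made.

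Cxcl12, the ligand of Cxcr4, was higher in KO cells at day 3, at 81.94, 80.69 and 80.21 CPM against 41.56, 56.46 and 30.58 CPM (log2 fold change 0.94 ± 0.22, SE, adjusted p = 0.00914). Ackr3, the second receptor for the same ligand, was lower, at 1.75, 2.502 and 2.289 CPM against 4.244, 5.825 and 28.44 CPM (log2 fold change -2.30 ± 0.56, SE, adjusted p = 0.0127). The log2 fold change of Ackr3 was -1.18 without WT replicate 3 of both days (adjusted p = 0.0282), and it did not pass without KO day 3 replicate 3 (adjusted p = 0.0838).

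Sox7 and Sox18, the closest relatives of Sox17, and Foxa3, that of Foxa1 and Foxa2, differed among themselves. Sox18 had 1.026, 1.781 and 5.43 CPM in WT cells and 0.700, 0.853 and 0.541 CPM in KO cells at day 3 (log2 fold change -1.69 ± 0.49, SE, adjusted p = 0.026), a call that was lost without WT replicate 3 of both days (-1.03, adjusted p = 0.165) and without KO day 3 replicate 3 (-0.97, adjusted p = 0.136). Sox7 had 0.280, 1.107 and 12.91 CPM against 0.700, 1.308 and 0.749 CPM and did not pass (-1.65 ± 0.89, SE, adjusted p = 0.186), and without WT replicate 3 of both days the sign turned (0.30, adjusted p = 0.713), while without WT day 3 replicate 1 it passed (-2.34, adjusted p = 0.0442). At day 0 Sox7 had 5.772, 7.992 and 13.53 CPM in KO cells against 1.147, 1.722 and 1.955 CPM in WT cells. The groups did not overlap, and the log2 difference was 2.45 ± 0.79 (SE, adjusted p = 0.054). It passed without WT replicate 3 of both days (2.46, adjusted p = 0.0116) and with only the 6 day 0 libraries (adjusted p = 7.42e-05). The same held with no filter on low counts (adjusted p = 0.0116) and with the replicate block within each day (adjusted p = 0.0176). DESeq2 (adjusted p = 0.00769) and limma-voom (adjusted p = 0.0328) called it too. It did not pass with any 1 day 0 library left out (adjusted p 0.0853 to 0.206). In KO cells Sox7 fell over the 3 days (-3.22 ± 0.84, SE, adjusted p = 0.00816). Its interaction was -4.10 ± 1.19 (SE, adjusted p = 0.0437), or -2.14 without WT day 3 replicate 3 (adjusted p = 0.0375), and the call was lost without WT replicate 3 of both days (-2.16, adjusted p = 0.0727), any 1 of the day 0 libraries or any 1 of the KO day 3 libraries (adjusted p 0.0542 to 0.142). Foxa3 had 1.166, 1.685 and 5.525 CPM against 0.95, 1.251 and 0.833 CPM (-1.27 ± 0.49, SE, adjusted p = 0.0742). Foxa3 passed with the replicate block within each day (-1.26, adjusted p = 0.0472) and without WT day 3 replicate 1 (-1.71, adjusted p = 0.0288). It was -0.49 without WT replicate 3 of both days (adjusted p = 0.444), -0.45 without its day 3 library alone (adjusted p = 0.417) and -0.72 without KO day 3 replicate 3 (adjusted p = 0.371).

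Annotated transcripts next to the members were looked up after these values were known. 9030622O22Rik, a noncoding transcript downstream of Foxa2 on the same strand (chr2:147944740-148040203), had 44, 30 and 124 reads in WT and 1, 2 and 2 reads in KO cells at day 3, with a log2 fold change of -5.10 ± 0.61 (SE, adjusted p = 0.000365), or -5.93 without WT day 3 replicate 2, -4.40 without KO day 3 replicate 3 and -4.21 without WT replicate 3 of both days. Gm37587, which overlaps Sox17 on the opposite strand (chr1:4496551-4499558), had 4 reads in WT day 3 replicate 3 and none in the other 11 libraries.

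Counts in the lists below stand beside these shares of all tested genes: 16.7% were lower and 14.3% higher in KO cells at day 3, 10.9% lower and 9.56% higher at day 0, 7.34% had a lower and 8.21% a higher interaction, 30.7% rose and 25.5% fell in WT cells, and 29.4% rose and 27.2% fell in KO cells. Of 22 tested genes otherwise used for forming or anterior endoderm, 14 rose and 2 fell in WT cells and 11 rose and 3 fell in KO cells from day 0 to day 3. At day 3, 10 were lower and 1 was higher in KO than in WT cells, with a median log2 difference of -1.57 against -0.00195 over all tested genes. The count of lower genes was 8 without WT replicate 3 of both days. Lhx1, a LIM homeobox factor, had 304, 199 and 225 CPM against 1.7, 1.99 and 2.37 CPM (log2 fold change -7.11 ± 0.79, SE, adjusted p = 0.000247). The Wnt antagonists Dkk1 and Frzb were lower too, with log2 fold changes of -6.65 ± 0.37 (adjusted p = 9.73e-06) and -5.99 ± 0.48 (adjusted p = 6.19e-05). The only gene higher in KO cells was Cdh1, the epithelial cadherin, by 0.36 ± 0.11 (adjusted p = 0.036). At day 0, 8 of the 22 were lower in KO cells (10.9% of all tested genes were) and none was higher (9.56%). Of these 8, Lhx1 and Krt8 were also lower at day 3, Cdh1 was higher then, and Otx2, Trh, Krt18, Epcam and Cldn6 were not called. The interaction was lower for 4 (7.34%) and higher for 6 (8.21%), all 6 among the genes lower at day 0.

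All 9 mesendoderm factors rose in WT cells, 3 rose and 1 fell in KO cells, and 7 were lower in KO than in WT cells at day 3, with a median log2 difference of -5.50. Mesp1, a factor of early mesoderm, had 21, 28.1 and 28.5 CPM against 1, 2 and 2 reads (log2 fold change -8.29 ± 0.92, SE, adjusted p = 0.000247), and the homeobox factor Evx1 was lower (log2 fold change -6.81 ± 0.67, adjusted p = 0.000143). At day 0, T, Lhx1 and Otx2 were lower in KO cells, without overlap between the groups. Replicate 3 was far above the other WT libraries for T (4.641, 6.419 and 77.41 CPM) and Lhx1 (0.6552, 0.835 and 13.9 CPM). KO cells had 0.3362, 0.3307 and 0.9193 CPM of T and 0, 0 and 0.1021 CPM of Lhx1. Otx2 had 33.96, 28.91 and 43.59 CPM in WT and 4.539, 1.654 and 5.465 CPM in KO cells at day 0. At day 3 Otx2 was not lower, with 173.7, 150.5 and 172.6 CPM in WT and 229.3, 247 and 262.4 CPM in KO cells. The log2 difference was 0.58 ± 0.20 (SE, adjusted p = 0.0537). The interaction was lower for 3 of the 9 and higher for 1, Otx2 (3.79 ± 0.32, SE, adjusted p = 0.000272).

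Of the 15 tested genes of the Nodal pathway 2 were lower and 3 higher in KO cells at day 3, near the 16.7% and 14.3% of all tested genes, with a median of -0.0744, and 1 was lower and 1 higher at day 0, and the interaction was lower for 1 and higher for 3. Tdgf1, the Nodal co-receptor, had 872, 817 and 318 CPM against 210, 375 and 230 CPM (log2 fold change -1.21 ± 0.28, SE, adjusted p = 0.00908), and the receptor gene Acvr2a was lower (log2 fold change -0.58 ± 0.15, adjusted p = 0.0159). Lefty1, an inhibitor of Nodal like Cer1, was higher in KO cells, at 125, 78.8 and 121 CPM against 44.4, 35.4 and 21 CPM (log2 fold change 1.74 ± 0.25, SE, adjusted p = 0.000919). Gdf3, a Nodal relative, was also higher in KO than in WT cells (1.55 ± 0.20, adjusted p = 0.000487), as was the gene of the protease Pcsk6 (0.61 ± 0.11, adjusted p = 0.00287). From day 0 to day 3, 8 of the 15 rose and 5 fell in WT cells and 7 rose and 6 fell in KO cells.

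Among 12 secreted antagonists 5 were lower in KO cells at day 3 and 2 were higher, with a median of -1.22. Besides Dkk1 and Frzb, the BMP antagonist Nog was lower (log2 fold change -4.53 ± 0.49, adjusted p = 0.000225), and besides Lefty1 the Wnt antagonist Sfrp2 was higher by 1.37 ± 0.21 (adjusted p = 0.0013). At day 0 none was lower and 2 were higher. Over the 3 days 6 rose and 3 fell in WT cells and 1 rose and 5 fell in KO cells, and the interaction was lower for 4 and higher for 2. Cer1 and Lefty1, both Nodal inhibitors, thus differed in opposite directions at day 3.

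**Figure D4:**
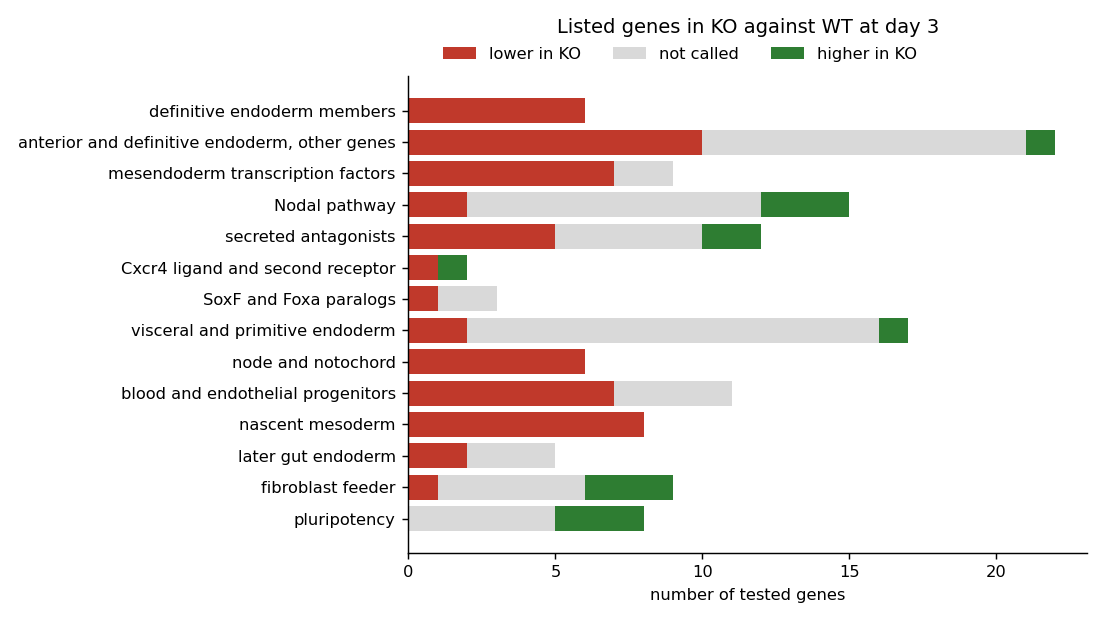
Number of tested genes in each list that were lower, higher or not called in KO against WT cells at day 3. All 6 members, all 6 node and notochord genes and all 8 nascent mesoderm genes were lower, and of the 15 Nodal pathway genes 2 were lower and 3 higher.

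Lists for other cell types that use some of the members were counted in the same way. The lists here and above share genes, among them Lhx1, Dkk1, Frzb, T, Mesp1 and Pdgfra, so their counts are not independent of each other. All 6 node and notochord markers were lower in KO cells at day 3 (median -5.60) and had risen in WT cells, and in KO cells none rose and 2 fell. Shh, the signal of notochord and floor plate, had 1.54, 0.915 and 11.6 CPM in WT cells and no read in KO cells (adjusted p = 0.00439). The T-box factor T had 692, 613 and 269 CPM against 13.5, 1.31 and 4.12 CPM (adjusted p = 0.002), and Noto, a homeobox factor of the node, 2.47, 0.433 and 3.48 CPM against 1 read (adjusted p = 0.000849). At day 0, 1 of these markers was lower and 1 higher, and the interaction was lower for 3.

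Of 11 blood and endothelial progenitor markers 7 were lower in KO cells at day 3 (median -2.09), or 5 without WT replicate 3 of both days, and none was higher. Summed over the list the levels were 61.71 to 458.6 CPM in WT cells and 28.6 to 33.09 CPM in KO cells. Log2 fold changes were -5.48 ± 0.69 for Kdr (adjusted p = 0.000459), -3.83 ± 0.95 for the cadherin gene Cdh5 (adjusted p = 0.0131) and, for the receptor gene Tie1, -3.56 ± 0.94 (adjusted p = 0.0175). For all of these, WT replicate 3 was far above the other WT libraries. Cdh5 had 2.8, 2.07 and 39.4 CPM in WT cells against 0.9, 0.341 and 0.666 CPM in KO cells. Tie1 had 1.26, 1.35 and 17 CPM against 0.65, 0.171 and 0.375 CPM, and Kdr 21.8, 19.2 and 258 CPM against 1.75, 0.569 and 1.83 CPM. At day 0, 2 were lower. In WT cells 6 rose and 1 fell, in KO cells 2 rose and 2 fell, and the interaction passed for none of the 11.

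Of 17 tested visceral and primitive endoderm markers 2 were lower and 1 was higher in KO cells at day 3 (median -0.941), shares below the 16.7% and 14.3% of all tested genes, and without WT replicate 3 of both days 1 was lower and 3 were higher. Summed levels were 271.9 to 675.1 CPM in WT cells and 242.8 to 366 CPM in KO cells, which overlapped. Pdgfra, also a mesoderm marker, was lower (log2 fold change -4.00 ± 0.35, adjusted p = 8.81e-05), and Spink1, a trypsin inhibitor, had 1.12, 0.866 and 50 CPM against 0.25, 0.853 and 0.666 CPM (adjusted p = 0.037). Rhox5, a reproductive homeobox gene, was higher by 1.23 ± 0.25 (adjusted p = 0.00492). In WT cells 7 rose and 3 fell, in KO cells 5 rose and 4 fell, at day 0 1 was lower and 1 higher, and the interaction was lower for 2 and higher for 2.

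All 8 nascent mesoderm markers were lower in KO cells at day 3 (median -4.56), or 7 without WT replicate 3 of both days. Msgn1, a presomitic mesoderm factor, had 2.47, 2.41 and 5.67 CPM and no read in KO cells (adjusted p = 0.00086), and Hand1 had 1, 1 and 2 reads there (adjusted p = 0.0036). All 8 rose in WT cells, none rose and 2 fell in KO cells, none passed at day 0, and the interaction was lower for 4.

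Of 9 genes of later gut endoderm, 5 passed the filter on low counts. At day 3 the log2 fold change was -4.94 ± 0.67 for Cdx2, a hindgut homeobox factor (adjusted p = 0.000656), and for Sox9 -2.59 ± 0.51 (adjusted p = 0.0044), and both were also lower in KO cells at day 0. In WT cells 2 of the 5 rose and 1 fell, in KO cells 1 rose and 1 fell, and no interaction passed.

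Fibroblast genes, which mark feeder cells, bear on the day 0 libraries. None of 9 tested genes passed between KO and WT cells at day 0. Summed levels of replicates 1 to 3 were 88.29, 292.5 and 152.8 CPM in WT and 142.3, 405.8 and 245.4 CPM in KO cells. The KO sum was thus the higher in every pair of the same number, and the median log2 difference was 0.653. At day 3 Fbn1, a matrix glycoprotein, was lower (log2 fold change -2.03 ± 0.38, adjusted p = 0.00354), and Dcn, a proteoglycan, was higher by 2.51 ± 0.43 (adjusted p = 0.00224), as were the collagen gene Col3a1 (1.47 ± 0.42, adjusted p = 0.0238) and Thy1 (0.77 ± 0.16, adjusted p = 0.00565). None rose and 5 fell in WT cells, 1 rose and 6 fell in KO cells, and the interaction was lower for 1 and higher for 1.

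Of 8 pluripotency genes 7 fell in WT and 8 in KO cells over the 3 days. At day 3, 3 were higher in KO cells and none lower: Sox2 by 1.35 ± 0.07 (adjusted p = 3.6e-06), Zfp42 by 0.76 ± 0.14 (adjusted p = 0.00323) and Esrrb by 0.68 ± 0.18 (adjusted p = 0.0173). At day 0 only Esrrb passed, as higher, and the interaction was higher for 1.

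For each member the 3 tested protein-coding genes with the most similar profile were found by Pearson's r of log2(CPM + 1) over the 12 libraries, which share groups and replicate numbers. The closest to Sox17 were Egflam (0.989), Vwa5b1 (0.988) and Adra2b (0.987). Foxa2 and Cer1 were in each other's list (0.988), and both had Slc44a5 (0.989 with Foxa2, 0.987 with Cer1). The others were Frzb for Foxa2 (0.989) and Pkd1l1 for Cer1 (0.991). Foxa1 was followed by Zim1 (0.973), Fam107a (0.972) and Zfpm1 (0.97), Hhex by St6galnac4 (0.988), Bmp2 (0.979) and Fgf10 (0.978), and Cxcr4 by Usp18 (0.977), Msgn1 (0.97) and Myl7 (0.966). No list of Sox17, Foxa1, Hhex or Cxcr4 held another member.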

How the data were processed

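PolyA RNA of 12 libraries (WT and Meteor KO, day 0 and day 3, 3 each) was sequenced with 1 × 100-base reads. Per the labels and the methods of the study, the authors trimmed reads with Cutadapt (v. 1.3), aligned them to GRCm38 with STAR (v. 2.4.2a) and made the deposited counts with htseq-count (v. 0.6.1). They are raw counts per Ensembl gene. Strand setting: not given in the sources used here. Reads on no gene or aligned to several places made up 46.3% to 51.0% of the records and were left out. Of 46517 genes, 46005 were found in GENCODE M21.

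Genes with CPM above 1 in at least 1 library were tested with edgeR 4.0.16 (R 4.3.3) by the quasi-likelihood method, with TMM, a coefficient per group and the replicate number as a block, since the methods name a batch factor. Standard errors were derived from the log2 fold change and its F statistic. Within a day same-numbered WT and KO libraries deviated together (correlation 0.341 to 0.732 in all 6 pairs, over 10901 genes), but across days they did not (mean -0.0549), so a block within each day was an alternative. No pair of replicates differed by as little as sampling noise. DESeq2 1.42.0 and limma 3.58.1 were further alternatives. The steps were tested on simulated counts with the same relative spread for all genes and no effect of the replicate number. That test does not cover the pairing within a day.

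The members and all gene lists were chosen with earlier results of these data known, so they are not independent evidence. Outside the members and 7 partners fixed by name, at most 3 genes per list and direction are named, by the size of their log2 fold change at day 3 among called genes, and 3 similar genes per member. Exceptions are Platr11, 9030622O22Rik and Gm37587, and Afp, Ttr and Apob, which describe WT replicate 3. Otx2, Trh, Krt8, Krt18, Epcam and Cldn6 are named for their day 0 calls.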

Additional observations from a re-analysis of the deposited data

Results flagged for a closer look

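The effect of the deletion differed between day 0 and day 3, by the interaction test over all genes, for 5 members. On the log2 scale the effect at day 3 minus that at day 0 was -5.82 for Sox17, -2.41 for Foxa1, -4.43 for Foxa2, -2.45 for Hhex and -3.61 for Cxcr4, and all 3 pairs of the same number were lower in KO cells at day 3 for each of them. For Sox7, a relative of Sox17, it was -4.10, with higher levels in KO cells at day 0, and the call was lost when any 1 of several libraries was left out. The Foxa1 call (adjusted p = 0.0444) was also lost when any 1 of several libraries was left out (adjusted p 0.0598 to 0.144). The same held with no replicate block (adjusted p = 0.0502) and in limma-voom (adjusted p = 0.0703).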

How the results depend on the processing

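Of 507 values of the 6 members under alternatives, 475 kept direction and side of the threshold, 17 lost and 6 gained the call, and 9 turned sign. All 6 members stayed lower in KO cells at day 3 in every setting, including the fit with no replicate block, which left 6 members higher in WT day 3 against day 0, 2 higher in KO cells, 0 called at day 0 and 4 with a lower interaction, Foxa1 being the change. None of the members' values that turned sign had passed. For KO against WT at day 0 these were Sox17 (-0.53 to 0.47 with each library left out), Hhex (-0.072 to 0.38) and Cxcr4 (-0.16 to 0.41, and -0.056 with no replicate block and -0.014 in limma-voom). For day 3 against day 0 in KO cells it was Cxcr4 (-0.56 to 0.054). Sox7, a relative of Sox17, ran at day 3 from -2.34 to 0.34, and was 0.30 without WT replicate 3 of both days, an alternative chosen after seeing the data. Its change over time in WT cells, 0.88 and not called, ran from -1.16 to 1.56 with each library left out and was -1.13 without WT replicate 3 of both days.

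At day 0, 1 member was lower with only the 6 libraries compared. In KO cells over time 0 to 1 members were lower with each library left out and 2 without WT replicate 3 of both days, and 1 to 2 were higher with each library left out, and 1 in limma-voom, and the cause was not tested. With only the 6 KO libraries it was 1, since Cer1 was at most 0.569 CPM there and did not pass the filter on low counts.

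Over all tested genes, either direction, the number called was 3201 for KO against WT at day 0, 4846 at day 3 and 2436 for the interaction. With a replicate block within each day, where the numbers pair the libraries, it was 5447, 7347 and 4889, and with only the 6 day 0 libraries 5356. This block changed no call of a member. Without WT replicate 3 of both days it was 1684, 2754 and 1438, and with each library left out 1717 to 2836, 2907 to 4257 and 1391 to 2397, with fewer libraries in the fit. With a log2 fold change above 1 as well it was 1398, 2065 and 1494, and for day 3 against day 0 4304 in WT and 4535 in KO cells. At about 20 reads per CPM, day 0 levels of Cer1 and Sox17 limit what could be detected there.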
